A study of Schizosaccharomyces pombe with 5 samples.

Results

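The proteasome genes described here encode the subunits of the 20S core and the 19S cap of the Schizosaccharomyces pombe proteasome, an assembly factor, and the segregase Cdc48 with its cofactor Ufd1. They were taken from a list of 44 names by gene symbol or synonym in the platform annotation. Several names are synonyms of one gene, and the list came to 37 genes, of which 36 were measured on every array, out of 4907 genes measured in all. rpn502, a paralog of rpn501, is not among the genes that the platform annotation names. The synonym mts2 is shared by rpt2 and by pcr1, a transcription factor gene, and was read as rpt2. The names pre2 and pre7 matched no symbol or synonym, and their budding yeast counterparts are listed as pts1 and pam1.

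Levels were compared on 5 spotted oligonucleotide arrays, each read in Cy5 and Cy3. By their labels, on 3 arrays Cy5 held cDNA of the tra1-1 mutant strain and Cy3 held cDNA of wild-type cells. On the other 2, both dyes held wild-type cDNA, called self-self hybridisation in the labels. All cells grew at 30 degrees centigrade, the dyes were not swapped, and the labels give neither the nature of the tra1-1 mutation nor the rest of the genotype. tra1 encodes the fission yeast counterpart of human TRRAP, a scaffold of the SAGA acetyltransferase complex, and the series title names the mitotic inhibitor Wee1. Each value is a log ratio, read here as log2 with Cy5 on top, from which the median of its array was subtracted. Neither the base nor the numerator comes with the deposited values, so every sign below rests on that reading. No separate cultures are named in the labels, and the p-values therefore reflect array-to-array spread that may be technical. A ratio of this kind cannot tell fewer cells that express a gene from less RNA per cell.

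The proteasome degrades proteins that carry chains of ubiquitin. Its barrel-shaped core is built of alpha rings, which gate the entrance, and beta rings, which hold the protease sites inside. The cap binds the ubiquitin chain, removes it, and unfolds the substrate with a ring of ATPases. In fission yeast the proteasome is needed to leave metaphase, because it destroys the cyclin Cdc13 and the securin Cut2. In budding yeast the subunit genes are transcribed together under the factor Rpn4.

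The arrays did not fall apart by their labels, which bears on every group difference below. For replicates 1, 2 and 3 of the label tra1-1 the ratio of tra1 itself was 0.04, 0.02 and -2.21, against -1.41 and -2.04 on those labelled wild type replicates 1 and 2. Across all genes, Pearson's r between the array labelled tra1-1 replicate 3 and the wild-type-labelled pair was 0.72 and 0.74, and between it and each other array of its own label 0.47. The same cDNA in both dyes would give ratios near 0 apart from any effect of the dyes. On the wild-type-labelled pair tra1 stood below 0. Neither dye effects on tra1 nor an exchange of labels between arrays was tested, and leaving out replicate 3 does not address an exchange. The groups keep the deposited labels, every direction below holds for those labels only, and results are also given without tra1-1 replicate 3. Among 7 markers of M cells, one of the mating types, the median was 0.12, -0.06 and 0.50 for the label tra1-1 and 0.67 and 0.52 for the label wild type. All 7 differences were below 0, and in 5 of 7 the groups did not overlap on the lower side, against 12% of all genes. Of the 7, 4 had an unadjusted limma p under 0.05, against 3.53% of all genes on the lower side. After adjustment 0 passed, as for all genes. Among 5 markers of P cells, the other mating type, it was 0.02, 0.01 and -0.22 for the label tra1-1, against 0.22 and -0.05 for the label wild type. The part of mating type markers in the values below was not tested.

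Proteasome genes stayed near the centre of every array. For replicates 1, 2 and 3 of the label tra1-1 their median ratio was 0.00, 0.04 and 0.00, against -0.03 and -0.05 on those labelled wild type replicates 1 and 2. At least 1 array showed a ratio of at least 0.5 from 0 in 7 of the 36 genes (19.4%), against 37% of all genes. None of the 36 reached 1 from 0 on any array, a level reached by 4.32% of all genes. In percentage points the contrast with other genes was widest on the array labelled tra1-1 replicate 3, where 3 proteasome genes (8.33%) and 22.2% of all genes were at least 0.5 from 0. The standard deviation between proteasome genes on that array was 0.25, and between all genes it was 0.45. On replicates 1 and 2 of the label tra1-1, where 1 proteasome gene each (2.78%) and 5.64% and 8.82% of all genes were at least 0.5 from 0, these standard deviations were close, at 0.24 and 0.29 between proteasome genes and 0.26 and 0.30 between all genes. On the arrays labelled wild type, where 3 (8.33%) and 1 (2.78%) proteasome genes and 15.2% and 13.7% of all genes were at least 0.5 from 0, the same standard deviations were 0.29 and 0.24 between proteasome genes and 0.40 and 0.39 between all genes. These shares and spreads describe the arrays and were not tested.

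**Figure D1:**
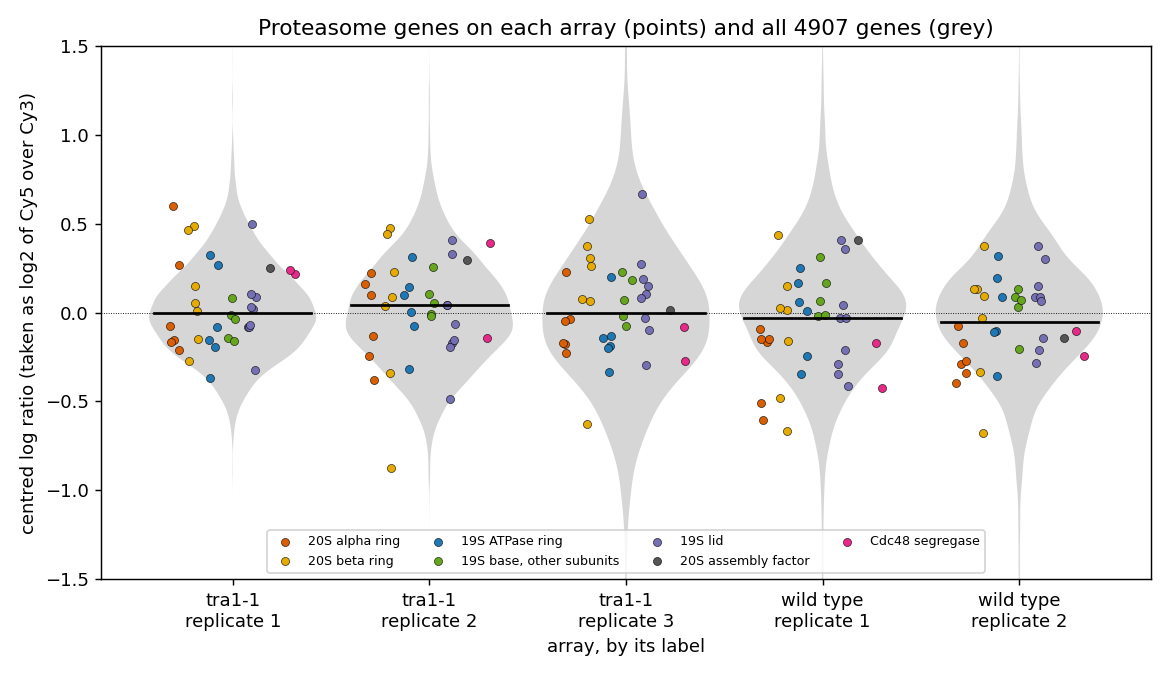
Centred log ratio (vertical axis, taken as log2 of Cy5 over Cy3) of the 36 proteasome genes on each of the 5 arrays, coloured by role, over the distribution of all 4907 genes in grey. Black bars are the medians of the 36 genes, and the axis ends at 1.5 from 0, past which 54 of all genes lie on at least 1 array. Proteasome genes stay within 1 of 0 on every array, also where the grey distribution is wide.

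The comparison of tra1-1 with wild type asked which of these transcripts differ in the mutant. In limma, 0 of 36 proteasome genes passed an adjusted p under 0.05 in either direction, and so did 0 of 4907 genes (0% higher and 0% lower). Their adjusted p ran from 0.625 upward. At an unadjusted p under 0.05 there was 1 proteasome gene, pre4, against 7.11% of all genes. It lay on the higher side, with 3.59% of all genes, and 0 lay on the lower side, with 3.53%. Differences ran from -0.26 to 0.51 on the log2 scale, with standard errors of 0.15 to 0.25, and 1 gene (2.78%) was at least 0.5 from 0, against 4.48% of all genes. The median difference was 0.06, against 0.00 over all genes, and 20 of 36 genes were above 0, against 49.4% of all genes. The arrays labelled tra1-1 lay wholly above those labelled wild type in 9 proteasome genes (25%), against 11.3% of all genes. They lay wholly below in 3 (8.33%), against 12% of all genes, so that 12 were apart in either direction (33.3%), against 23.3% of all genes. With tra1-1 replicate 3 left out, limma called 2.47% of all genes higher and 1.71% lower, and 0 of 36 proteasome genes. On those 4 arrays, 12 proteasome genes lay wholly above and 6 wholly below the wild-type-labelled arrays, against 23.5% and 24% of all genes.

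**Figure D2:**
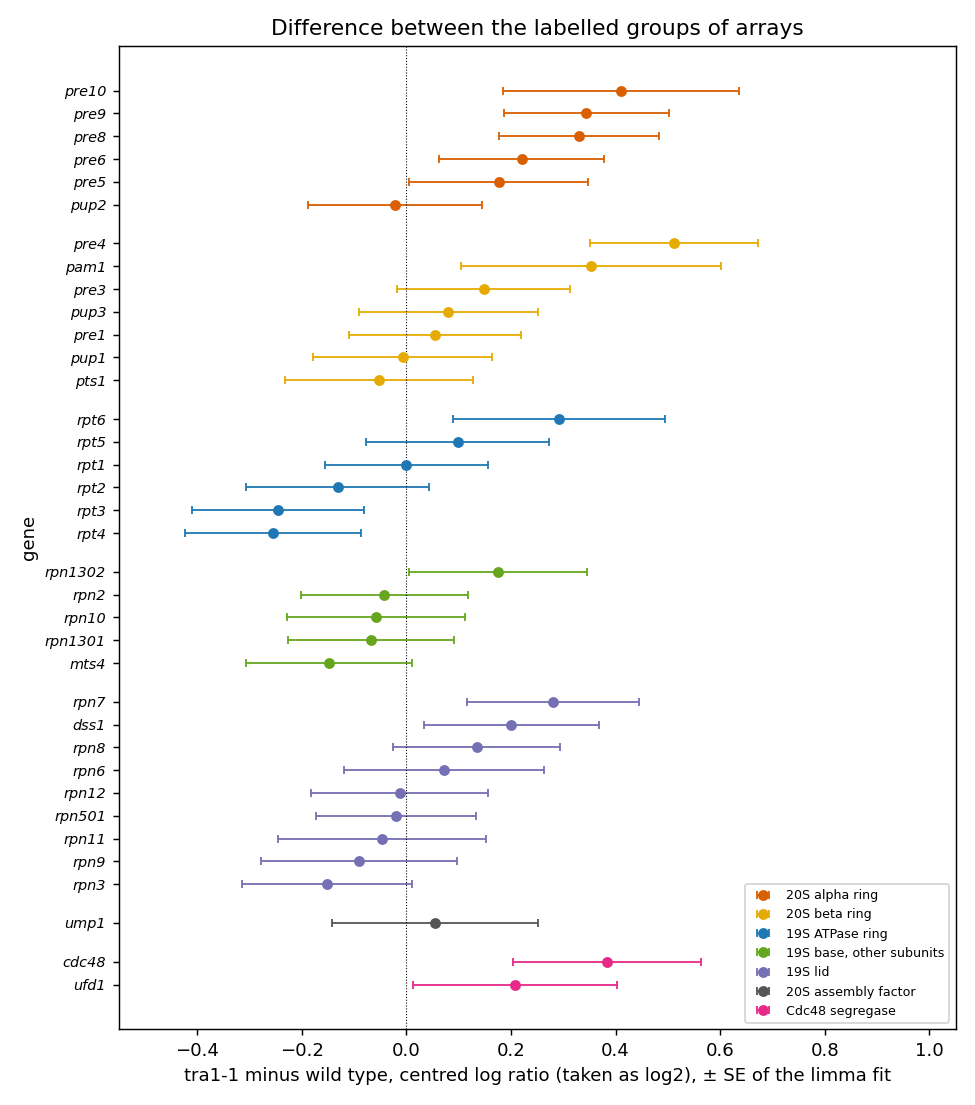
Difference (tra1-1, n = 3, minus wild type, n = 2, by label) for each proteasome gene, on the log2 scale, with bars of 1 standard error from the limma fit and colours by role. 5 of the 6 alpha ring genes shown lie above 0 (scl1, at -0.04, is not shown), whereas the 20 genes of the 19S cap spread on both sides, 7 above and 13 below.

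Core genes had a median difference above 0, and cap genes had one near 0. Of 13 core subunit genes 10 had a difference above 0, with a median of 0.18 (0.16 with scl1, an alpha ring gene outside the list, at -0.04), and of 20 cap subunit genes 7 did, with a median of -0.03. Wholly higher arrays were found in 4 of 13 core and 4 of 20 cap genes, against 11.3% of all genes, and wholly lower ones in 0 core and 3 cap genes, against 12% of all genes. Without the array labelled tra1-1 replicate 3 the medians were 0.16 for the core and -0.03 for the cap. With that array alone on the mutant side they were 0.23 and 0.01. Leaving out each array in turn gave core medians of 0.16 to 0.26 and cap medians of -0.03 to 0.02. The difference between core and cap was not tested, because the lists were drawn up with earlier results of these data known.

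The alpha ring, whose amino termini close the entrance of the core, had differences above 0 in 5 of the 6 genes of the list, with a median of 0.28, and in 5 of 7 with scl1 added, with a median of 0.22. Alpha ring medians were -0.11, -0.02 and -0.11 for the label tra1-1, against -0.16 and -0.28 for the label wild type. Under the label wild type all 6 genes, and scl1, had ratios below 0 on both arrays, as did 9 of the 14 core genes with scl1. On these arrays, taken singly, 51.8% and 50.8% of all genes were above 0. pre9 stood at -0.17, -0.13 and -0.17 on the arrays labelled tra1-1, against -0.61 and -0.40 on those labelled wild type. As the mean of its 2 oligonucleotides it was below 0 throughout, least so on the mutant-labelled arrays. The groups did not overlap (difference 0.34 ± 0.16, SE, limma adjusted p = 0.704). pre8 stood at 0.27, 0.16 and 0.23 on the arrays labelled tra1-1 and at -0.15 and -0.08 on those labelled wild type. Its groups lay on opposite sides of 0 as means of 2 oligonucleotides (difference 0.33 ± 0.15, SE, limma adjusted p = 0.704). The first oligonucleotide of pre8 had overlap, with 0.24, -0.28 and 0.17 for the label tra1-1, against -0.13 and -0.07 for the label wild type. The differences of the first and second were 0.15 and 0.52. pre10 differed most within the mutant label, with 0.60, 0.22 and -0.23 on the arrays labelled tra1-1, against -0.15 and -0.27 on those labelled wild type. The value of replicate 3 lay between both wild-type values, so the groups overlapped (difference 0.41 ± 0.23, SE), and leaving out each array in turn gave 0.21 to 0.62, with 0.62 reached without that replicate. Differences of pre6, pre5 and pup2 were 0.22 ± 0.16, 0.18 ± 0.17 and -0.02 ± 0.17 (SE), and the pre6 groups did not overlap.

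The beta ring holds the protease sites, in pre3 (caspase-like), pup1 (trypsin-like) and pts1 (chymotrypsin-like), and 4 subunits without one. pre4, one of those without, had the smallest p of all 36 genes. It stood at 0.46, 0.44 and 0.53 on the arrays labelled tra1-1, and at -0.16 and 0.09 on those labelled wild type. As means of 2 oligonucleotides, the mutant-labelled values were tight and all above the others (0.48 ± 0.04, SD, n = 3, against -0.03 ± 0.18, SD, n = 2). Singly, the first stood at 0.85, 0.47 and 0.43 on the arrays labelled tra1-1 and -0.21 and -0.12 on those labelled wild type. The second stood at 0.08, 0.42 and 0.625, against -0.11 and 0.31, with overlap. The difference of the mean, 0.51 ± 0.16 (SE), missed the threshold, with a limma adjusted p of 0.625, and ranked 106 from the highest of 4907 genes. Leaving out each array in turn kept it between 0.38 and 0.64. Among the catalytic subunits, pre3 stood at 0.49, 0.48 and 0.26 on the arrays labelled tra1-1 and 0.15 and 0.37 on those labelled wild type, above 0 on all 5. pup1 was below 0 on all 5, at -0.28, -0.34 and -0.63 on the arrays labelled tra1-1 and -0.48 and -0.34 on those labelled wild type. The differences of pre3, pup1 and pts1 were 0.15, -0.01 and -0.05, each within its standard error of 0.17, 0.17 and 0.18. pam1 had the lowest single ratio of the 36 genes, with -0.15, -0.87 and 0.07 on the arrays labelled tra1-1, against -0.66 and -0.68 on those labelled wild type. Its wild-type values were nearly equal and its mutant values lay on both sides of them (difference 0.35 ± 0.25, SE). pup3 and pre1 differed by 0.08 and 0.05.

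The ring of 6 ATPases, which unfolds substrates and threads them into the core, was split. rpt4 stood at -0.08, 0.00 and -0.20 on the arrays labelled tra1-1, against 0.01 and 0.32 on those labelled wild type. The mutant-labelled values were lower by a margin of under 0.01 between the nearest arrays (difference -0.26 ± 0.17, SE, limma adjusted p = 0.766). rpt3 stood at -0.20, -0.32 and -0.13 on the arrays labelled tra1-1 and 0.17 and -0.11 on those labelled wild type, also without overlap (difference -0.25 ± 0.17, SE). rpt6 lay on the other side, with -0.16, 0.32 and -0.33 on the arrays labelled tra1-1, against -0.34 and -0.36 on those labelled wild type. The groups did not overlap, and replicate 2 of the mutant label stood highest (difference 0.29 ± 0.20, SE). rpt2, rpt5 and rpt1 differed by -0.13, 0.10 and 0.00, and rpt1 was above 0 on all 5 arrays as the mean of its 2 oligonucleotides.

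The other subunits of the base include mts4 (Rpn1) and rpn2, scaffolds, and rpn10, rpn1301 and rpn1302, which encode ubiquitin receptors. mts4 stood at 0.08, -0.01 and 0.07 on the arrays labelled tra1-1 and 0.31 and 0.09 on those labelled wild type. The groups were apart by a small margin (difference -0.15 ± 0.16, SE, limma adjusted p = 0.873). rpn1301 stood at -0.01, -0.02 and 0.18 on the arrays labelled tra1-1 and 0.16 and 0.07 on those labelled wild type. rpn1302 stood at -0.04, 0.26 and -0.02 on the arrays labelled tra1-1 and -0.01 and -0.21 on those labelled wild type. Their differences were -0.07 ± 0.16 and 0.18 ± 0.17 (SE), each with overlapping groups, and the difference between the paralogs was not tested. rpn2 and rpn10 differed by -0.04 and -0.06.

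The lid carries Rpn11, the enzyme that removes the ubiquitin chain, paired with Rpn8, among scaffold subunits. rpn7 had the smallest p of the lid genes, with 0.10, -0.07 and -0.03 on the arrays labelled tra1-1, against -0.41 and -0.14 on those labelled wild type. The groups did not overlap (difference 0.28 ± 0.16, SE, limma adjusted p = 0.747). rpn8 stood at 0.50, 0.41 and 0.67 on the arrays labelled tra1-1, and at 0.41 and 0.38 on those labelled wild type. It was high on all 5 arrays, and the gap between the nearest arrays of the groups was under 0.01 (difference 0.13 ± 0.16, SE). rpn3 stood at 0.02, 0.04 and 0.15 on the arrays labelled tra1-1 and 0.36 and 0.09 on those labelled wild type, with overlap (difference -0.15 ± 0.16, SE). rpn501, for the scaffold Rpn5, was the flattest, with 0.09, 0.04 and 0.10 on the arrays labelled tra1-1 and 0.04 and 0.15 on those labelled wild type. Whether its probes also bind the transcript of rpn502 was not tested. dss1 (Rpn15), a small acidic subunit shared with other complexes, differed by 0.20 ± 0.17 (SE) without overlap. rpn6, rpn12, rpn11 and rpn9 differed by 0.07, -0.01, -0.05 and -0.09, all with overlapping groups.

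Outside the particle, cdc48 encodes the ATPase that pulls ubiquitylated proteins out of membranes and complexes, and ufd1 its substrate-binding cofactor. cdc48 stood at 0.22, 0.39 and -0.08 on the arrays labelled tra1-1, against -0.17 and -0.24 on those labelled wild type. The groups did not overlap, and the array labelled tra1-1 replicate 3 was nearest to the wild-type-labelled pair (difference 0.38 ± 0.18, SE, limma adjusted p = 0.704). Without that array the difference was 0.51. ufd1 stood at 0.24, -0.14 and -0.27 on the arrays labelled tra1-1 and -0.42 and -0.10 on those labelled wild type, with overlap (difference 0.21 ± 0.20, SE). ump1, the chaperone that matures the core, had 0.25, 0.30 and 0.01 on the arrays labelled tra1-1 and 0.41 and -0.14 on those labelled wild type. Its wild-type-labelled arrays lay on either side of the others (difference 0.05 ± 0.20, SE).

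Each gene was read by 2 oligonucleotides, which gives a second look at these small differences. Both oligonucleotides had a difference above 0 in 14 proteasome genes and below 0 in 4, and they were on opposite sides in 18. They were on the same side in 50% of proteasome genes and in 56.6% of all 4673 genes with both values. The median gap between the oligonucleotides of a gene was 0.23 in proteasome genes, larger than their median absolute difference of 0.14 between the labelled groups. Over all genes these values were much the same, at 0.22 and 0.14. For pre4 the oligonucleotides gave 0.75 and 0.28, and for pre9 0.55 and 0.14, above 0 but unequal. cdc48 gave 0.39 and 0.37, and pre10 0.41 and 0.41, nearly equal pairs. rpt3 gave -0.58 and 0.09, the widest gap of the 36, and its lower value rests on 1 oligonucleotide. With the first oligonucleotide of each gene only, the core and cap medians were 0.15 and -0.04, and with the second only they were 0.24 and 0.02.

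**Figure D3:**
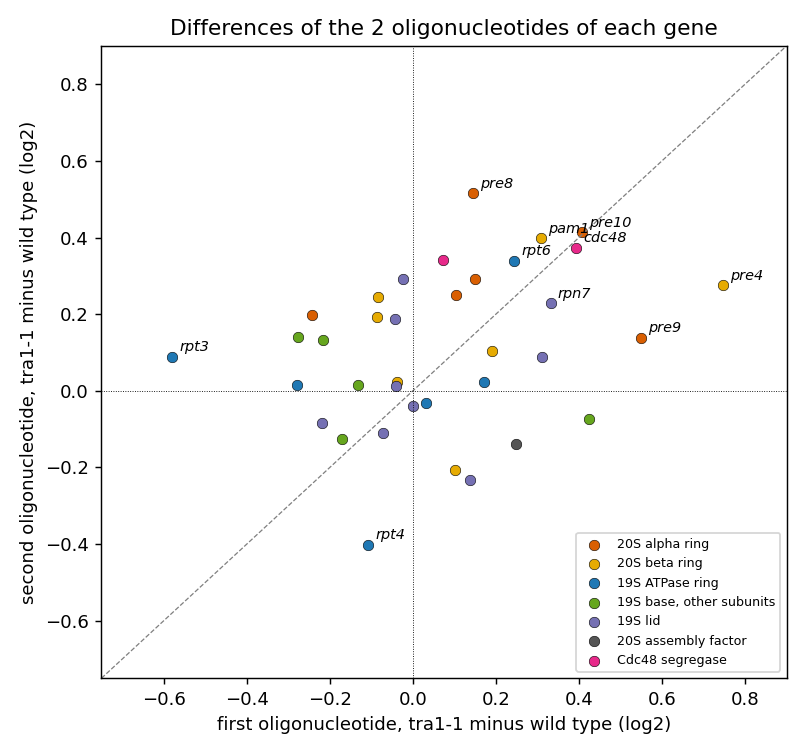
Difference (tra1-1 minus wild type, by label) by the first (horizontal axis) and the second (vertical axis) oligonucleotide of each of the 36 proteasome genes, on the log2 scale, coloured by role, with equality dashed. 18 genes lie in the quadrants of opposite sign, and pre10 and cdc48 lie close to the dashed line.

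By label, the ratio within the arrays labelled tra1-1 is mutant over wild type, with any effect of the dyes, although tra1 was near 0 on 2 of these arrays and low on the other. By limma against 0 on these 3 arrays, 2 proteasome genes were above 0 (5.6% of all genes were) and 0 below (2.22% of all genes were). They were rpn8, at 0.52 ± 0.13 (SD, n = 3, limma adjusted p = 0.0357), and pre4, at 0.48 ± 0.04 (SD, n = 3, limma adjusted p = 0.0376). Without any 1 of the 3 arrays the number that passed ran from 0 to 8, with 8 reached without replicate 3, 5 above and 3 below, against 12.8% and 9.6% of all genes. rpn8 was also high on the arrays labelled wild type, at 0.39 ± 0.02 (SD, n = 2), whereas pre4 was at -0.03 ± 0.18.

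The arrays labelled wild type are self-self hybridisations by label, and tra1 was low on both. Every group difference in this report is taken from them, but their ratios are not read as a measure of dye effects alone. In the fit of all 5 arrays, 2 proteasome genes passed below 0 (4.99% of all genes did) and 0 passed above (6.4% did). They were pre9, at -0.50 ± 0.15 (SD, n = 2, limma adjusted p = 0.0286), and pam1, at -0.67 ± 0.01 (SD, n = 2, limma adjusted p = 0.0488). Without the array labelled tra1-1 replicate 3, 7 passed, 1 above and 6 below, against 15% and 12.8% of all genes. Some genes kept 1 sign on all arrays. 7 proteasome genes were above 0 on all 5 arrays (20.4% of all genes were), namely pre3, pup3, pre1, rpt1, rpn3, rpn501 and rpn8. 4 were below 0 on all 5 (17.2% of all genes were), namely pup2, pre5, pre9 and pup1. These signs are those of the mean of 2 oligonucleotides. Only pre3, rpn8 and pup1 kept theirs on all arrays with each oligonucleotide. For pre1 the first oligonucleotide was above 0 and the second below 0 on all 5 arrays.

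The array labelled tra1-1 replicate 3 had a lower correlation with the wild-type-labelled arrays over proteasome genes than over all genes. Its r with wild type replicates 1 and 2 was 0.45 and 0.52 across the 36 genes, against 0.72 and 0.74 across all genes. The wild-type-labelled pair correlated with r = 0.64 across the 36 genes and 0.75 across all genes. For replicates 1 and 2 of the label tra1-1 these values were 0.63 and 0.65. Replicate 2 had r of 0.53 and 0.48 with the wild-type-labelled arrays across the 36 genes, against 0.44 and 0.40 across all genes. For replicate 1 it was 0.41 and 0.35, against 0.45 and 0.40. With replicate 3, replicate 2 had 0.28 across the 36 genes and 0.47 across all genes, and replicate 1 had 0.44 and 0.47. These are descriptions across genes, which are not independent replicates and share the array, the dyes and the oligonucleotides.

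Other genes listed for ubiquitin-dependent degradation showed no called difference either. In limma 0 of 92 passed the test in either direction, with 46 above and 46 below 0 and a median of 0.00. The 92 include hus5, for a SUMO-conjugating enzyme, and pan2, for a poly(A) nuclease. Of 10 further proteasome genes (chaperones of cap assembly, shuttle receptors, associated enzymes and the alpha ring gene scl1) 7 were above 0, with a median of 0.08. ubp6, for the deubiquitinating enzyme bound to the cap, stood at 0.42, 0.33 and 0.41 on the arrays labelled tra1-1, against 0.11 and 0.08 on those labelled wild type. The groups did not overlap (difference 0.30 ± 0.15, SE, limma adjusted p = 0.729). nas6, for a cap assembly chaperone, differed by 0.31 ± 0.19 (SE). scl1, the alpha ring gene, differed by -0.04.

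Lists drawn up for enzymes that attach ubiquitin had medians on either side of 0. Of 14 genes in the list of ubiquitin ligases outside the large complexes, 12 were below 0, with a median of -0.16. That list also holds ubx2 (-0.17), named as a Cdc48 cofactor rather than a ligase. In 5 of the 14 the groups did not overlap on the lower side, against 12% of all genes. doa10, for a membrane-embedded ligase, stood at -0.35, -0.40 and 0.35 on the arrays labelled tra1-1, against 0.33 and 0.38 on those labelled wild type. Its value on the array labelled tra1-1 replicate 3 lay among the wild-type values (difference -0.49 ± 0.23, SE, limma adjusted p = 0.704). pub3 differed by -0.31 ± 0.15 (SE). Of 12 conjugating enzyme genes 8 were above 0, with a median of 0.08, counting hus5 (0.11), whose enzyme attaches SUMO. ubc4, whose enzyme serves the anaphase-promoting complex, had the lowest difference of the pathway. It stood at -0.34, -0.07 and 0.02 on the arrays labelled tra1-1, against 0.83 and 0.11 on those labelled wild type, where replicate 1 was far above the rest (difference -0.60 ± 0.22, SE, limma adjusted p = 0.685). ubc7 differed by 0.25 ± 0.16 (SE).

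Of 6 genes for ubiquitin and its activating enzyme 3 were above 0, with a median of 0.00. uba1, for the activating enzyme, differed by -0.31 ± 0.16 (SE) and the ubiquitin fusion gene ubi5 by 0.23 ± 0.15 (SE). Of 15 cullin ligase genes 11 were above 0, with a median of 0.04, led by knd1 (0.34), for a cullin regulator, and the RING subunit gene rbx1 (0.30). Of 14 genes of the anaphase-promoting complex and its activators 6 were above 0, with a median of -0.03, and slp1, for its mitotic activator, and apc14 differed by 0.29 and 0.30. Of 17 genes listed as deubiquitinating enzymes 6 were above 0, with a median of -0.05, and ubp5 and ubp14 differed by -0.25 and -0.29. The 17 include pan2, a poly(A) nuclease gene matched through its synonym ubp13. Of 4 Cdc48 cofactor genes, with ubx2 left among the ligases, 3 were above 0, with a median of 0.09. lub1 and ubx3 differed by 0.29 and 0.17. None of these genes passed the test.

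**Figure D4:**
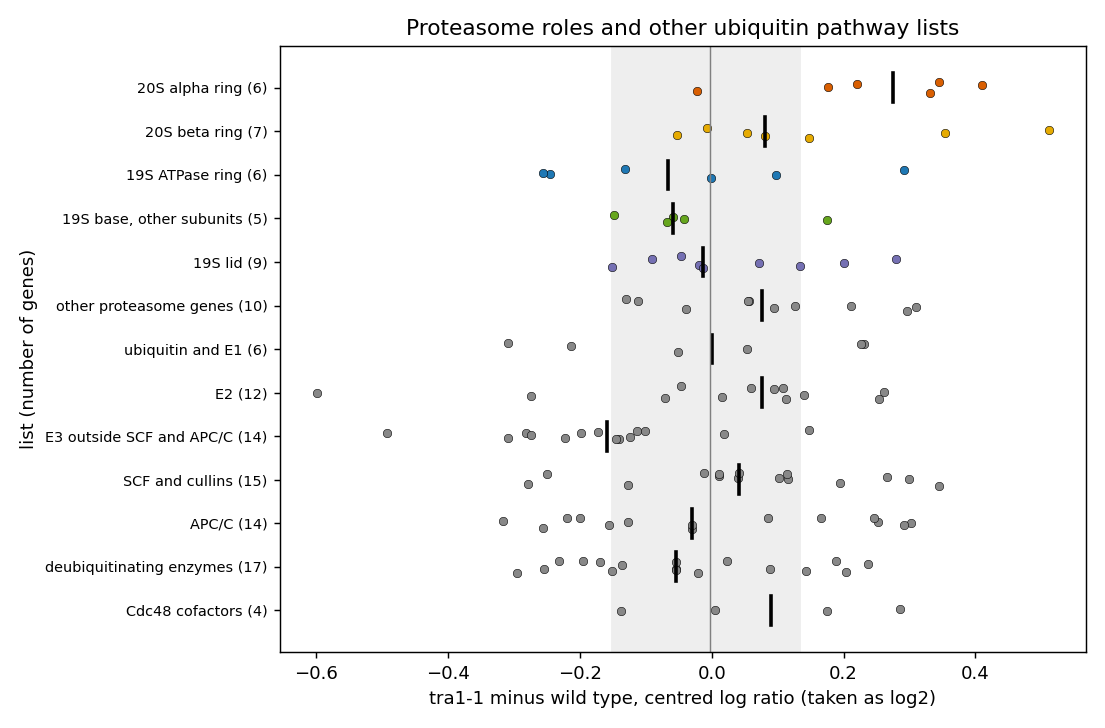
Difference (tra1-1 minus wild type, by label), on the log2 scale, for the genes of 5 proteasome roles (coloured) and 8 other lists of the ubiquitin pathway (grey), with the median of each list as a black bar. The grey band spans the middle of all genes, from the lower quartile of -0.15 to the upper quartile of 0.13. The bars of the alpha ring without scl1 (0.28) and of the ubiquitin ligase list with ubx2 (-0.16) lie outside it.

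The proteasome genes do not lie together in the genome. In the gene table of the reference assembly the 37 genes fall on the 3 chromosomes as 16, 13 and 8, and the nearest 2, rpn1301 and rpn12, have 2 protein-coding genes between them. Those neighbours differed by -0.07 and -0.01 between the labelled groups, rpn8 and rpt4, with 5 genes between them, by 0.13 and -0.26, and pre6 and rpn7, with 8 between them, by 0.22 and 0.28.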

How the data were processed

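The deposited values are log ratios of both channels for 9858 probes on 5 arrays, with deposited medians of -0.43, -0.21 and -0.43 (tra1-1) and -0.23 and -0.39 (wild type), taken as log2. The sources used here name no scanner, background correction, normalization, log base or numerator. Array medians were subtracted, and the 2 oligonucleotides per gene averaged. From 4929 features (genes, or pairs of probes without a name), 22 with a missing array were dropped. Probes were named by the platform annotation (9632 with 1 gene symbol, 44 with several, 182 not listed), and 4791 of 4816 genes matched the reference table (ASM294v3) by gene ID. That table served for names and gene order only.

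The group test was limma (version 3.58.1, R 4.3.3; lmFit, then eBayes), 2-sided, fitted on the whole table and adjusted over it by Benjamini-Hochberg, with a threshold of 0.05. The wild-type ratio was tested against 0 in that fit, the tra1-1 ratio on its own 3 arrays. The fits were tested on simulated data. The number of arrays limits the precision. Members and lists were chosen with earlier results of these data known. Every measured member is named. Single-array values are given for the members with the smallest p per direction and role, for the paralogs and, chosen after their values were seen, for a few more. From each other list the 2 genes with the smallest p are named, scl1 and doa10's values aside. The name rad23, also a synonym of swi10, was left unmatched, and rhp23 was listed under its own name. Alternatives were a replicate block, values as deposited, quantile normalization, other handling of probes, array weights, a robust prior and leaving out arrays. Figures were drawn with matplotlib 3.10.9.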

Additional observations from a re-analysis of the deposited data

How the results depend on the processing

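Of the 36 differences, 21 kept their sign without any 1 array and 15 did not: pup2 (-0.15 to 0.10), pup1 (-0.0798 to 0.0988), pup3 (-0.029 to 0.14), pre1 (-0.0328 to 0.12), pts1 (-0.28 to 0.18), rpt1 (-0.0515 to 0.0398), rpt2 (-0.30 to 0.0347), rpn2 (-0.11 to 0.0108), rpn10 (-0.15 to 0.0425), rpn501 (-0.0732 to 0.0343), rpn6 (-0.0905 to 0.19), rpn9 (-0.26 to 0.0757), rpn11 (-0.22 to 0.0918), rpn12 (-0.19 to 0.17) and ump1 (-0.22 to 0.33). Of the 21, 16 moved by over 1.5 times, such as pre5 (0.0085 to 0.34), rpt5 (0.0015 to 0.21), pam1 (0.16 to 0.63), rpt6 (0.11 to 0.43) and rpt4 (-0.41 to -0.10), and pre4, pre6, pre8, pre9 and cdc48 did not. A lone wild-type array was then assumed to vary like the others. The median member difference ran from 0.0401 to 0.0899 in this way, and was 0.018 as deposited, 0.0273 without tra1-1 arrays 1 and 2, and 0.12 with the second oligonucleotide only. Genes called over the whole table numbered 0 to 205 without 1 array (205 without tra1-1 replicate 3), 1 without tra1-1 arrays 1 and 2, 1 with the second oligonucleotide only and 95 with array weights. With the replicate number as a block, limma called 329 genes, 196 higher and 133 lower, and 1 member, pre10 (0.62, adjusted p = 0.016). That fit drops tra1-1 replicate 3 in effect, and pup1 (0.0988), pup3 (-0.029), pre1 (-0.0328), rpt1 (0.0108), rpn6 (-0.0905) and rpn11 (0.0918) changed sign, as pup1 (0.0104) and rpt1 (0.0143) did with quantile normalization. Same-numbered arrays correlated in their deviations at 0.04 and -0.03, and only their number is shared. The deviations of the 2 wild-type-labelled arrays mirror each other, so these values cannot decide whether arrays were paired. Against 0, the wild-type ratio passed in 14 members as deposited (38.9%, against 31.8% of all genes) and in 0 to 7 without 1 array, and the tra1-1 ratio in 16 (44.4%, against 53.3%), in 4 with quantile normalization (11.1%, against 12.8%), and in 0 to 8. Without centring, all genes were shifted to medians of -0.36 (tra1-1) and -0.31 (wild type), and their median difference was -0.05. The cause of these changes was not tested. With 3 and 2 arrays and no intensities, signal over background is unknown.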
